A study of Homo sapiens with 9 samples.

Results

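A set of 10 genes of small chromatin proteins, listed by name and found among the 26485 gene models of the count data, is described here across libraries of 1 to 1000 human cells. The 10 genes are *HMGN1* to *HMGN5*, *HMGB1*, *HMGB3*, *HMGA1*, *PTMA* and *PTMS*. *HMGN2* and *PTMS* were placed on the list because their levels in single cells had shifted in opposite directions, so their single-cell values are given as a description, without a test. The cells were of HAP1, a near-haploid, adherent human line that descends from KBM-7 leukaemia cells, with the labelled genotype WT. Total RNA was isolated with NAxtra magnetic nanoparticles from 1 sorted cell (3 libraries) and from 10, 100 and 1000 sorted cells (2 libraries each). All groups shared the line, the genotype, the lysis buffer, a DNase treatment and the stranded SMART-Seq library kit. By the labels they differed only in the number of cells sorted, and no group was treated. The methods of the study state a larger DNase volume for 1000 cells than for fewer cells, whereas the labels state the same volume for all, and the part of such a difference in the results was not tested. The replicates are labelled biological, but no label says that they came from separate cultures, so p-values measure the spread between these libraries.

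High-mobility-group proteins are abundant, small proteins of chromatin that bind DNA or nucleosomes without recognising a long sequence. The HMGN family binds the nucleosome core and competes with linker histone H1, the HMGB family bends DNA through HMG boxes, and HMGA proteins hold AT-rich DNA through AT-hooks. Prothymosin α (*PTMA*) and parathymosin (*PTMS*) are very acidic, disordered proteins that bind linker histone H1, and prothymosin α is typical of growing cells.

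In single cells, *PTMA* and *HMGN5* lay below every library of 10, 100 and 1000 cells and were the members that passed the test, with log2 fold changes of -0.27 (standard error, SE, 0.0464) and -0.33 (SE 0.0866). Both calls were lost without 100 Cell Rep 2, 1000 Cell Rep 1 or 1000 Cell Rep 2, and that of *HMGN5* held in only 4 of 19 alternative settings. *HMGN2* differed 2.19-fold between the highest and the lowest single cell, against 1.09-fold over the 6 libraries of more cells. *PTMS* was at 199 to 252 CPM in single cells, in both 10-cell libraries and in 100 Cell Rep 1, and at 128 to 133 CPM in the 3 other libraries. CPM is the read count scaled to a library size of 1000000 after TMM correction. TPM is the count divided by the exonic length of a gene and scaled to a sum of 1000000 per library, without TMM correction. Log2 fold changes are from edgeR.

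The libraries held 42842970 to 61645865 counts. The number of genes with at least 1 count was 13968 to 14478 in single cells, 16283 and 16552 at 10 cells, 16474 and 18368 at 100 cells, and 18232 and 18634 at 1000 cells. The kit amplifies by PCR and no molecular identifiers were counted, so reads are not independent molecules. HAP1 was checked against markers of other cells. The 8 blood cell markers summed to at most 0.157 CPM in single cells and 1.39 CPM in the other libraries, with 7 at 0 in all single cells. The 10 fibroblast markers summed to 7.61 to 18.4 CPM in single cells and 11.8 to 20.7 CPM in the others, with 7 at 0 in all single cells, decorin (*DCN*) and lumican (*LUM*) among them. The single-cell sums came from *COL1A1*, *THY1* and *POSTN*. *COL1A1* had 3.76 to 15.3 CPM in single cells and 8.55 to 16.8 CPM in the others. *THY1* had 10.6 CPM in Single Cell Rep 2 alone, against at most 1.62 CPM in the others. *POSTN* had 3.19 CPM in Single Cell Rep 3 alone, against at most 2.07 CPM in the others. *S100A4*, one of the 7 at 0 in single cells, passed the test as lower (0 counts in single cells, 0.253 to 0.755 CPM in the others, adjusted p = 0.0258 from edgeR). The 9 plasma cell markers summed to 146 to 206 CPM in single cells and 189 to 210 CPM in the others, nearly all from *XBP1* and *SDC1*. The part of these lists in the results below was not tested.

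The sequences before the starts of 3 members are shown, namely of *PTMA* and *HMGN5*, which passed the test in single cells, and of *HMGN2*, which was chosen on its single-cell values. They are the 250 bases before a RefSeq start on GRCh38, 5′ to 3′ on the strand of the gene. The RefSeq starts of *HMGN2* and *HMGN5* lie slightly downstream of the gene starts in the count data. Capitals mark matches on either strand of the CCAAT box, the E-box CACGTG, the GC box GGGCGG and the TATA box TATAAA. The windows are chr2:231708275-231708524 (plus strand) for *PTMA*, chr1:26472190-26472439 (plus strand) for *HMGN2* and chrX:81201914-81202163 (minus strand) for *HMGN5*.
PTMA: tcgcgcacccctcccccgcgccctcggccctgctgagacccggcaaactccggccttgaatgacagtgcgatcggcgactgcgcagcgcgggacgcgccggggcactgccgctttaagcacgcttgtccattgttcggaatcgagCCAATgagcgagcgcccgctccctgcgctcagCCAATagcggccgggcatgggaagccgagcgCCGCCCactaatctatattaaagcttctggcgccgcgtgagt
HMGN2: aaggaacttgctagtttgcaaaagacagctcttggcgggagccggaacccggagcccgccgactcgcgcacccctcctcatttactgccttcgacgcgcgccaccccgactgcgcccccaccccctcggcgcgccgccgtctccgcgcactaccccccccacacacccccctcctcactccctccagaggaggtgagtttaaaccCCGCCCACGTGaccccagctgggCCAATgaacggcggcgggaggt
HMGN5: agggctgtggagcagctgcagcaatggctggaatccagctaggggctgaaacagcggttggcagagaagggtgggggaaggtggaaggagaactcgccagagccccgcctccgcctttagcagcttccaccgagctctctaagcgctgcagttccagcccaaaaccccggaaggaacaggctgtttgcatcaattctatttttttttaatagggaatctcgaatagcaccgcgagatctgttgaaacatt
The *PTMA* window held 2 CCAAT matches and 1 GGGCGG match. The *HMGN2* window held 1 match each of the CCAAT box, the E-box and the GC box, and the matches of the E-box and the GC box overlapped. The *HMGN5* window held no match of the 4 motifs. Of 35114 RefSeq windows of this length, 32% held CCAAT, 6.35% CACGTG, 42.6% GGGCGG and 10.7% TATAAA. The windows had 32, 25 and 10 CpG dinucleotides for *PTMA*, *HMGN2* and *HMGN5*, beside a median of 11 over all windows. Over the 13 windows of the 9 members matched by symbol, 8 held CCAAT, 9 GGGCGG, 1 CACGTG and 0 TATAAA. A match is a description of the letters and not evidence of a bound site.

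Per exonic length, the members spanned a wide range of levels. In the 6 libraries of 10, 100 and 1000 cells, *PTMA* averaged 2861 TPM, and had rank 27 among all genes in single cells, rank 20 at 10 cells and rank 21 at 100 and 1000 cells. *HMGN2* followed with 586 TPM and *HMGA1* with 357 TPM. *PTMS* (301 TPM), *HMGB1* (293 TPM), *HMGN1* (283 TPM) and *HMGN5* (272 TPM) were neighbours whose ranges over the 6 libraries overlapped, and the ranges of *HMGA1* and *PTMS* overlapped too. *HMGB3* (209 TPM), *HMGN3* (116 TPM) and *HMGN4* (53.8 TPM) lay below and apart from each other. In single cells, *HMGN2* (388.7 ± 163 TPM, SD, n = 3) and *PTMS* (388.3 ± 29.7 TPM, SD, n = 3) had nearly the same mean. The 10 genes together took 0.357% to 0.378% of all counts in single cells and 0.414% to 0.437% in the other libraries. *PTMA* had the largest part in this sum, with 73724 of 193318 counts in Single Cell Rep 1. The sum also holds *HMGN2* and *PTMS*, which were chosen on their single-cell values.

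Levels compared between these genes are uncertain, because reads that map to several places were not counted and most members share stretches with other genes. Of the 50-base stretches of the coding transcripts of *HMGN2* in GENCODE 29, 33.0% also occurred exactly in transcripts of 33 other genes, of which 31 were pseudogenes. The share was 20.9% for *PTMA* (8 pseudogenes), 15.3% for *HMGN1* (9 pseudogenes), 13.6% for *HMGN3* (0 pseudogenes) and 11.5% for *HMGB1* (15 pseudogenes). It was 7.59% for *HMGA1*, 3.53% for *HMGB3* and 0.0394% for *HMGN5*. No stretch of *HMGN4* or *PTMS* was shared.

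**Figure D1:**
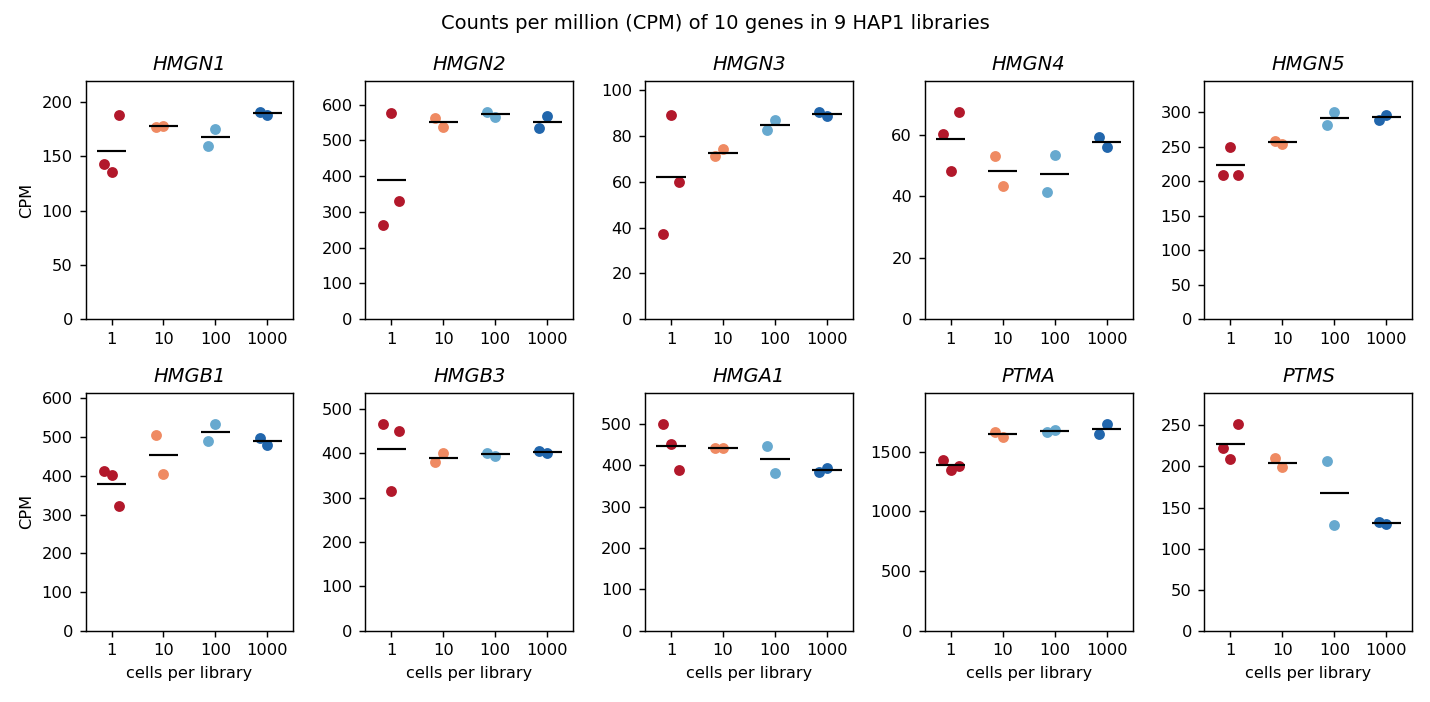
CPM (vertical axis) of the 10 genes against the cells per library (horizontal axis), with a point for each of the 9 libraries and a line at the mean of each cell number. The single cells of PTMA (1349 to 1427 CPM) and HMGN5 (209 to 249 CPM) lie below all other libraries, and PTMS in 100 Cell Rep 1 lies at the level of the 10-cell libraries.

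Single cells were set against the 6 libraries of 10, 100 and 1000 cells to ask whether the members kept their level when the input was 1 cell. In libraries of many cells, fewer cells with a transcript and less RNA per cell cannot be told apart. All 10 members passed the filter on low counts, and 15603 genes were tested. The test and its standard errors take a common spread per gene for both groups. Among the 2277 genes of 100 to 1000 CPM, however, the median SD of log2 CPM was 0.231 in single cells and 0.0837 in the 6 libraries. Where single cells vary more, the standard errors are likely too small and the p-values too low. Of the 8 members that were not chosen on this contrast, 2 were lower and 0 higher at an adjusted p under 0.05 (edgeR's quasi-likelihood test with Benjamini-Hochberg adjustment over all genes), and 3 had an unadjusted p under 0.05, beside 24.5% of all genes. Over all genes, 6.67% were called, 4.45% as lower and 2.22% as higher, and among the 2340 genes averaging 100 CPM or more 9.1% were called. The median log2 fold change was -0.23 over these 8 members, 0.01 over all genes tested and -0.03 over the genes of at least 100 CPM. Of the 8 members not chosen on this contrast, 5 were below 0 and 3 above, beside 48.8% of all genes and 54.8% of those of at least 100 CPM below 0. The number of members called was 5 without Single Cell Rep 2, where 3188 genes of all were called, against 1041 with all libraries. It was 0 without 100 Cell Rep 2, 1000 Cell Rep 1 or 1000 Cell Rep 2, where 0 genes of all were called. The members that did not overlap between the groups were *PTMA* and *HMGN5*, both lower in single cells, beside 15.0% of all genes that did not overlap, 10.1% as lower and 4.83% as higher.

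*PTMA*, on chromosome 2 of hg38 from 231708525 to 231713540, encodes prothymosin α, which loosens the hold of linker histone H1 and has a further role in restraining apoptosis. It had 1427, 1349 and 1383 CPM in the 3 single cells (Rep 1, Rep 2 and Rep 3), against 1666 and 1621 CPM at 10 cells, 1667 and 1682 CPM at 100 cells, and 1649.8 and 1734 CPM at 1000 cells. All single cells lay below all other libraries. The mean was 1386 ± 39.3 CPM (SD, n = 3) in single cells, against 1670 ± 37.5 CPM (SD, n = 6) over the 6 others, and the log2 fold change of -0.27 (SE 0.0464) had an adjusted p of 0.0184 from edgeR. The gene had the smallest spread of the 10 among single cells, with an SD of log2 CPM of 0.0408, against 0.0322 in the 6 other libraries. Of the 63 genes with a mean of 1000 CPM or more, 6.35% had a smaller SD among single cells. The direction held in all 19 alternative settings, with log2 fold changes of -0.31 to -0.25. The call held in 13 of these settings. It was lost without 100 Cell Rep 2, 1000 Cell Rep 1 or 1000 Cell Rep 2 (adjusted p = 0.0607, 0.062 and 0.0634 from edgeR), in one fit of all 4 cell numbers, and against 100 and 1000 cells or 1000 cells alone.

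*PTMS*, on chromosome 12 from 6766375 to 6770952, encodes parathymosin, a related acidic protein that binds linker histone H1. It was one of the genes chosen for its single-cell value, and had 222, 209 and 252 CPM in the single cells, against 209.9 and 199 CPM at 10 cells, 207 and 128 CPM at 100 cells, and 133 and 130.2 CPM at 1000 cells. The level thus overlapped between single cells and 10 cells, and the libraries split into a set of 6 at 199 CPM or more and a set of 3 at 133 CPM or less. The 100-cell libraries fell on either side of this gap. The log2 fold change of single cells against the 6 others was 0.44 (SE 0.18), from means of 227 ± 22.2 CPM (SD, n = 3) for single cells and 168 ± 41.2 CPM (SD, n = 6) for the 6. Against 1000 cells alone it was 0.79.

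The number of genes detected moved with *PTMS*. The 6 libraries with 16552 or fewer genes detected were those of higher *PTMS*, and the 3 with 18232 or more were those of lower *PTMS*, as the plot of both genes against genes detected shows. *PTMA* did not follow this split, since 100 Cell Rep 1 (16474 genes) had 1667 CPM and 100 Cell Rep 2 (18368 genes) had 1682 CPM. The ratio of *PTMA* to *PTMS* in TPM was 5.23 to 6.16 in single cells, 7.56 and 7.77 at 10 cells, 7.67 and 12.5 at 100 cells, and 11.8 and 12.7 at 1000 cells. The part of the number of detected genes in the *PTMS* values was not tested.

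**Figure D2:**
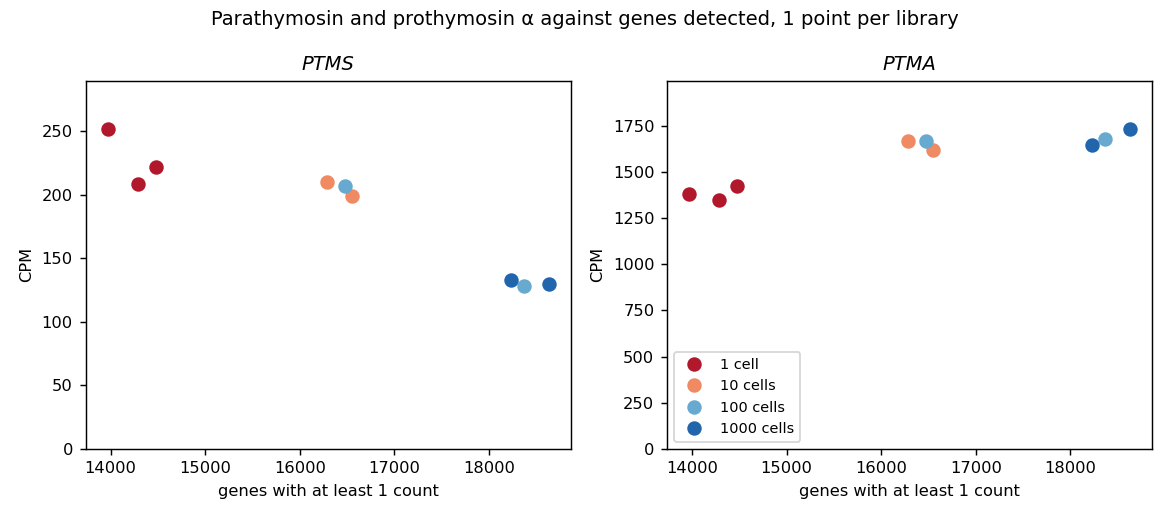
CPM of PTMS (left) and PTMA (right) on the vertical axes against the number of genes with at least 1 count (horizontal axes), with a point for each of 9 libraries coloured by cell number. PTMS lies at 199 to 252 CPM in libraries with up to 16552 genes and at 128 to 133 CPM in those with 18232 or more, while PTMA is lower only in the single cells.

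*HMGN2*, on chromosome 1 from 26472411 to 26476642, encodes an abundant nucleosome-binding protein of the HMGN family and was the other gene chosen for its single-cell value. It had 263, 577 and 330.3 CPM in the 3 single cells (Rep 1, Rep 2 and Rep 3), against 563 and 538 CPM at 10 cells, 579.5 and 567 CPM at 100 cells, and 534 and 567 CPM at 1000 cells. Single Cell Rep 1 and Rep 3 lay below the 6 other libraries, at -1.08 and -0.76 from their mean log2 CPM, and Single Cell Rep 2 lay within their range. Single cells averaged 390.3 ± 165 CPM (SD, n = 3), against 558 ± 18.1 CPM (SD, n = 6) for the other libraries, a log2 fold change of -0.52 (SE 0.187). It was -0.91 without Single Cell Rep 2 and -0.30 without Single Cell Rep 1. The SD of log2 CPM was 0.583 among single cells and 0.047 in the 6 other libraries. It comes from the values on which the gene was chosen. *HMGN2* made up 33.6%, 48.9% and 34.5% of the summed HMGN TPM in the single cells and 42.0% to 47.0% in the other libraries.

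*HMGN3*, on chromosome 6 from 79201245 to 79234738, encodes a family member whose expression in mouse is restricted to some tissues. It had 37.4, 89.2 and 59.9 CPM in the single cells, against 71.3 and 74.2 CPM at 10 cells, 82.5 and 87.0 CPM at 100 cells, and 90.4 and 88.8 CPM at 1000 cells. The order of the single cells was that of *HMGN2*, with Single Cell Rep 1 and Rep 3 below all other libraries and Rep 2 among them. *HMGN2* was chosen on its single-cell values, and 37.9% and 41.6% of all genes lay below in Rep 1 and Rep 3. Whether both genes vary together was not tested. The log2 fold change was -0.41 (SE 0.215, edgeR's adjusted p = 0.276). Without Single Cell Rep 2 it was -0.76 (adjusted p = 0.0175 from edgeR), where 3188 genes of all were called. That fit leaves out the only single cell among the other libraries, so the pass follows from the omission. Its SD of 0.628 among single cells was the largest of the 10, but 66.2% of the genes with a mean of 10 to 100 CPM had a smaller one. *HMGN3-AS1*, a transcript of the opposite strand, had 0 counts in all single cells and 1.08 to 3.53 CPM in the other libraries (adjusted p = 0.0157 from edgeR). This low level lies near the floor, and single cells had fewer genes detected than the other libraries. The part of this in the call was not tested. The counts were made by strand, and the antisense gene was at a small share of the level of *HMGN3* in every library.

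*HMGN5*, on the X chromosome from 81113701 to 81201942, encodes the family member with a long acidic tail, which counters chromatin compaction by linker histone. It had 209, 249 and 209 CPM in the single cells, against 258 and 254 CPM at 10 cells, 282 and 299.9 CPM at 100 cells, and 289 and 296 CPM at 1000 cells. All single cells lay below all other libraries, Rep 2 by a small margin, and the 10-cell libraries lay below those of 100 and 1000 cells. The mean was 223 ± 22.8 CPM (SD, n = 3) in single cells, against 279.8 ± 19.4 CPM (SD, n = 6) over the 6 others. The log2 fold change was -0.33 (SE 0.0866), with an adjusted p of 0.044 in edgeR's test. This call was near the threshold, and was kept in 4 of 19 alternative settings, with adjusted p-values of 0.00593 to 0.422 and log2 fold changes of -0.42 to -0.29.

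*HMGN1*, on chromosome 21 from 39342315 to 39349121, encodes a nucleosome-binding protein with a role in DNA repair and transcription. It had 143, 135 and 188 CPM in the single cells, against 177 and 178 CPM at 10 cells, 159.9 and 175 CPM at 100 cells, and 191 and 188.5 CPM at 1000 cells. Here Single Cell Rep 1 and Rep 2 were the low ones, and the log2 fold change was -0.20 (SE 0.109, edgeR's adjusted p = 0.296). Without Single Cell Rep 3, the cell that was not low, it was -0.36 (adjusted p = 0.0206 from edgeR), where 2406 genes of all were called. *HMGN4*, on chromosome 6 from 26538344 to 26546936, encodes a protein close to that of *HMGN2* and had the lowest level of the 10. It had 60.3, 48.4 and 67.5 CPM in the single cells, against 53.1 and 43.4 CPM at 10 cells, 41.3 and 53.6 CPM at 100 cells, and 59.5 and 56.1 CPM at 1000 cells. By CPM, Single Cell Rep 1 and Rep 3 lay above all other libraries, Rep 1 by a small margin, and Rep 2 lay among them. By TPM, Rep 1 (62.7 TPM) lay just below the highest of the other libraries (62.9 TPM). The log2 fold change was 0.20 (SE 0.155, edgeR's adjusted p = 0.481). *HMGN4* was the only one of the 5 HMGN genes with a log2 fold change above 0.

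*HMGB1*, on chromosome 13 from 30458741 to 30465944, encodes a DNA-bending protein with paired HMG boxes that also acts as an alarm signal outside cells. It had 413, 402 and 323 CPM in the single cells, against 504 and 405 CPM at 10 cells, 490.3 and 534 CPM at 100 cells, and 498 and 479 CPM at 1000 cells. Single Cell Rep 1 lay just above 10 Cell Rep 2, and the other single cells lay below all 6 libraries. The log2 fold change of -0.35 (SE 0.0998) missed the threshold, with an adjusted p of 0.0561 from edgeR, and passed it in 5 of 19 alternative settings. *HMGB3*, on the X chromosome from 150980508 to 150990775, encodes a related HMG-box protein known from blood progenitors in mouse. It had 466, 315 and 449.7 CPM in the single cells, against 379.8 and 399 CPM at 10 cells, 401 and 393 CPM at 100 cells, and 404 and 399.9 CPM at 1000 cells. Single Cell Rep 1 and Rep 3 lay above the narrow range of the 6 libraries and Rep 2 below it, so the mean difference was small (log2 fold change 0.05, SE 0.105, edgeR's adjusted p = 0.818). The direction turned in 3 of 19 alternative settings, with log2 fold changes of -0.05 to 0.21. The highest was that without Single Cell Rep 2, which passed the test (adjusted p = 0.0247 from edgeR), where 3188 genes of all were called. That fit leaves out the single cell below the range, so the pass follows from the omission.

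*HMGA1*, on chromosome 6 from 34236800 to 34246231, encodes an AT-hook protein that is abundant in proliferating and transformed cells. It had 500.2, 451 and 388 CPM in the single cells, against 442 and 442 CPM at 10 cells, 447 and 381 CPM at 100 cells, and 383 and 394 CPM at 1000 cells. By CPM, Single Cell Rep 1 and Rep 2 were the highest of the 9 libraries and Rep 3 lay inside the span of the other libraries (log2 fold change 0.11, SE 0.0909, edgeR's adjusted p = 0.53). By TPM, Rep 2 (369 TPM) lay inside the span of the libraries of more cells (327 to 386 TPM) and Rep 3 (305 TPM) below it.

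**Figure D3:**
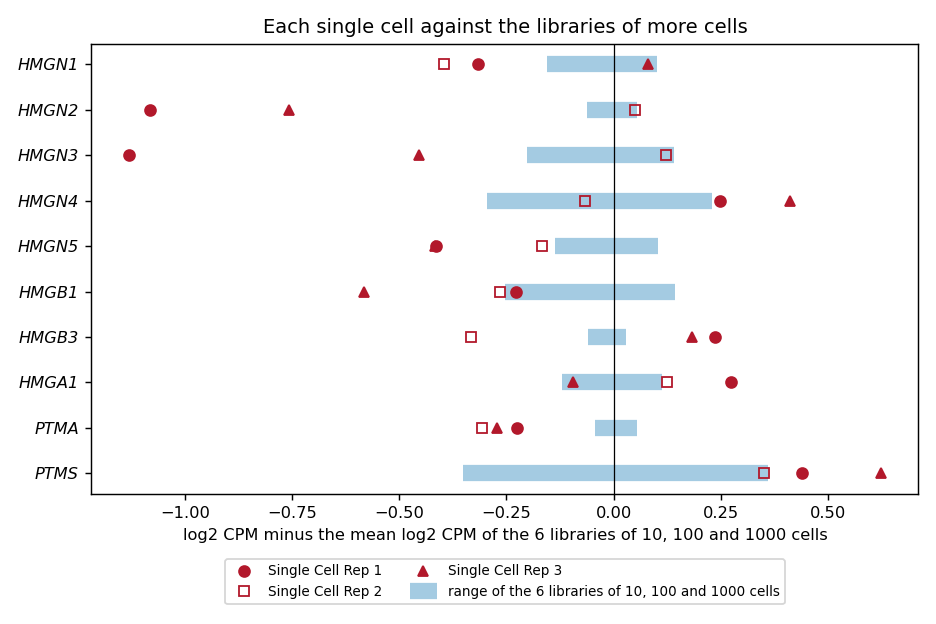
Difference of each single cell from the mean log2 CPM of the 6 libraries of 10, 100 and 1000 cells (horizontal axis) for the 10 genes (vertical axis), with a red symbol for each single cell and a blue bar for the range of the 6 libraries. Single Cell Rep 1 and Rep 3 lie far to the left for HMGN2 and HMGN3, where Rep 2 lies on the bar, and the 3 cells lie close together for PTMA. HMGN2 was chosen on its single-cell values.

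No single cell was low or high for all members. By CPM, Single Cell Rep 1 lay below the range of the 6 libraries for 5 members, above it for 4 and within it for 1. Single Cell Rep 2 lay below for 5, above for 1 and within for 4, and Single Cell Rep 3 lay below for 5, above for 3 and within for 2. These counts include *HMGN2*, below in Rep 1 and Rep 3, and *PTMS*, above in both, which were chosen on their single-cell values. Over the 15603 genes, 37.9%, 38.5% and 41.6% lay below in Rep 1, Rep 2 and Rep 3, and 32.8%, 31.6% and 33.2% lay above. The SD of log2 CPM among single cells exceeded that among the 6 other libraries for all 8 members not chosen on single-cell values. For *PTMS* it did not, with 0.139 among single cells and 0.36 among the 6, where the 100-cell pair alone had 0.489. The median over the 2277 genes of 100 to 1000 CPM was 0.231 among single cells and 0.0837 among the 6. *HMGN1* (0.255) and *HMGB3* (0.314) lay above that median among single cells, while *HMGB1* (0.196), *HMGA1* (0.185) and *HMGN5* (0.144) lay below it.

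**Figure D4:**
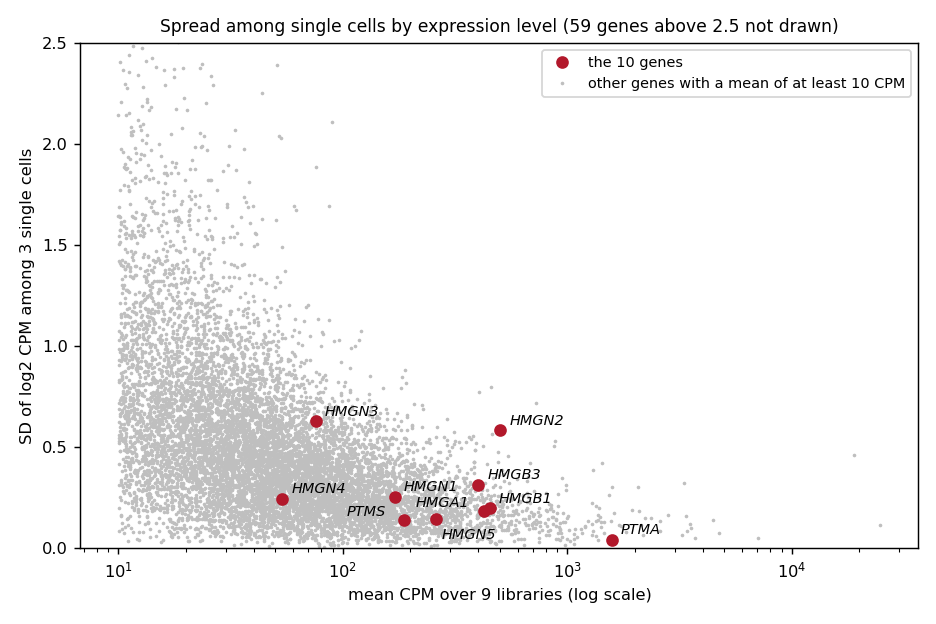
SD of log2 CPM among the 3 single cells (vertical axis) against the mean CPM over 9 libraries (horizontal axis, log scale) for genes averaging 10 CPM or more, with the 10 members in red and other genes in grey. PTMA (0.0408) lies near the lower edge of genes of its level, and HMGN2 (0.583) was chosen on its single-cell values.

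The libraries of 10 cells were set against those of 100 and 1000 cells, and those of 100 cells against 1000 cells, to follow the members without any single cell. These comparisons share the 1000-cell libraries, and the first shares the 100-cell libraries, with the single-cell comparison. Between 10 cells and the libraries of 100 and 1000 cells, edgeR called 0 of 10 members, and 3 had an unadjusted p under 0.05, beside 13.4% of all genes. The count from DESeq2 was 2, where 271 genes of all were called. Over all 15926 genes edgeR called 0.0188%, 0.0126% as higher and 0.00628% as lower. *HMGN5* had 258 and 254 CPM at 10 cells, against 282 to 299.9 CPM at 100 and 1000 cells (log2 fold change -0.19, SE 0.0514, edgeR's adjusted p = 0.231 and 0.0367 from DESeq2). *HMGN3* had 71.3 and 74.2 CPM at 10 cells, against 82.5 to 90.4 CPM at 100 and 1000 cells (log2 fold change -0.26, SE 0.0718, edgeR's adjusted p = 0.233 and 0.0436 from DESeq2). These were the members that did not overlap between the groups, both lower at 10 cells, beside 23.2% of all genes, 11.8% as lower. *HMGN2*, which was low in Single Cell Rep 1 and Rep 3, differed little at 10 cells (log2 fold change -0.03, SE 0.0487, edgeR's adjusted p = 0.814), and likewise *PTMA* (-0.04, SE 0.0367, edgeR's adjusted p = 0.696).

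*PTMS* was the member with the largest positive log2 fold change at 10 cells (0.45, SE 0.165, edgeR's adjusted p = 0.302), at 204 CPM on average against 168 CPM at 100 cells and 131 CPM at 1000 cells. Without 100 Cell Rep 1 the log2 fold change was 0.64 and passed the test (adjusted p = 0.00308 from edgeR), where 162 genes of all were called. Only that library of 100 and 1000 cells (207 CPM) lay at the level of the 10-cell libraries, so the pass follows from leaving it out. Between 100 and 1000 cells, edgeR called 0 of 10 members (1 at an unadjusted p under 0.05) and 0% of 15597 genes, of which 2.01% had such a p. By DESeq2, 0 members were called. *PTMS* had a log2 fold change of 0.35 (SE 0.186, edgeR's adjusted p = 0.952) that rested on 100 Cell Rep 1. Without that library it was -0.03. Without 100 Cell Rep 2 it was 0.65, in a fit that takes the spread of the 1000-cell pair for the remaining 100-cell library. *HMGN1* (-0.18), *HMGN3* (-0.08) and *HMGN4* (-0.28) did not overlap between the groups and were lower at 100 cells, beside 33.2% of all genes without overlap, 17.1% as lower. *HMGB3*, *HMGN5* and *PTMA* had log2 fold changes between -0.02 and -0.01.

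**Figure D5:**
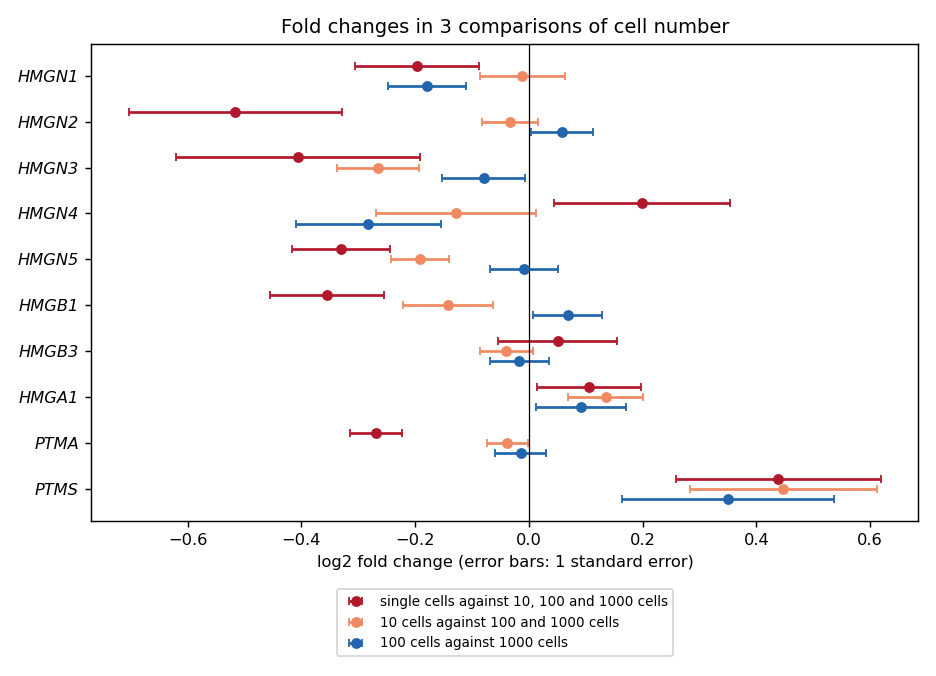
Log2 fold change (horizontal axis, with bars of 1 standard error) of the 10 genes (vertical axis) for single cells against 10, 100 and 1000 cells (red), 10 cells against 100 and 1000 cells (orange) and 100 against 1000 cells (blue). The bars take the spread of both groups in a comparison as equal. PTMA lies at -0.27 for single cells and near 0 in the other comparisons, HMGN5 at -0.33, -0.19 and -0.01, and PTMS at 0.44, 0.45 and 0.35.

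The genes whose levels followed *HMGN2* most closely over the 9 libraries were *BRIX1*, a factor of ribosome assembly, *PCDH18*, a protocadherin, and *CRYZL1*, a quinone oxidoreductase-like gene. Closeness is the root mean square difference of log2 CPM, each centred on its mean, over 9875 genes averaging 10 CPM or more. It was 0.0837, 0.0839 and 0.09 for the 3 genes, against 0.395 for the spread of *HMGN2* itself. *BRIX1* had 47.3, 106 and 71.3 CPM in the single cells, against 98.4 to 108 CPM in the other libraries. The nearest to *PTMS* were *PPDPF* (0.0898), *VAMP2* (0.101), a protein of vesicle fusion, and *PRR12* (0.126), against 0.354 for *PTMS* itself. *PPDPF* had 148, 147 and 156 CPM in the single cells, against 159 and 126 CPM at 10 cells, 153 and 87.2 CPM at 100 cells, and 90.5 and 93.1 CPM at 1000 cells. Its gap between the 100-cell libraries, like that of *PTMS*, follows from the search for likeness over these same 9 libraries. The profiles searched for hold the single-cell values on which *HMGN2* and *PTMS* were chosen.

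Other genes of these families and of their partners on chromatin were counted in the single-cell comparison in the same way. *HMGB2*, the HMGB gene of proliferating cells that the list did not hold, had 404, 304 and 429 CPM in the single cells, against 435 to 548 CPM in the other libraries, and was lower (log2 fold change -0.44, SE 0.11, edgeR's adjusted p = 0.0387). *HMGA2*, the other AT-hook gene, had 129, 87.4 and 98.3 CPM in the single cells, against 119 to 129 CPM in the other libraries (log2 fold change -0.26, edgeR's adjusted p = 0.194). Of 16 other genes of HMG-box proteins, 1 was higher, the repressor gene *CIC* (0.54, adjusted p = 0.0249), and 1 lower, *TFAM* (-0.47, adjusted p = 0.0296), which packs mitochondrial DNA (edgeR). Over all genes, 2.22% were called higher and 4.45% lower, so these calls are not read as a result about the family. The 4 linker histone genes tested had adjusted p-values from edgeR of 0.226 or higher, with log2 fold changes of 0.22 for *HIST1H1E*, 0.11 for *HIST1H1C*, -0.11 for *HIST1H1D* and -0.19 for *H1FX*.

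Of 26 genes of histone chaperones and acidic nuclear proteins, 7 were lower in single cells and 0 higher, beside 4.45% of all genes called lower and 9.1% of those of at least 100 CPM called in either direction. A log2 fold change below 0 was found for 20 of the 26, beside 54.8% of the genes of at least 100 CPM, and the median was -0.17, beside -0.03 over those genes. The 7 were *NASP* (-0.40, adjusted p = 0.0131), a chaperone of linker and core histones, *NAP1L1* (-0.35, adjusted p = 0.0214), *SET* (-0.23, adjusted p = 0.0378), *NCL* (-0.21, adjusted p = 0.0362), and 3 of the acidic leucine-rich ANP32 proteins. These were *ANP32B* (-0.34, adjusted p = 0.0307), *ANP32E* (-0.42, adjusted p = 0.0352), which removes the histone variant H2A.Z from nucleosomes, and *ANP32A* (-0.28, adjusted p = 0.0416), all from edgeR. *ANP32B* had 344, 426 and 346 CPM in the single cells, against 449 to 491 CPM in the other libraries. *SET*, whose product is like prothymosin α very acidic, had 1026, 1098 and 992 CPM in the single cells, against 1155 to 1275 CPM in the other libraries. The list was chosen with earlier results of these data known, so its counts are a description. In the fits without 100 Cell Rep 2, 1000 Cell Rep 1 or 1000 Cell Rep 2, 0 genes of all were called. The same held in one fit of all 4 cell numbers. The 7 calls were lost in these fits, as were those of *HMGB2*, *CIC*, *TFAM*, *HMGN3-AS1* and *S100A4*. In the comparisons without single cells, the median log2 fold change of these 26 genes was 0.00 for 10 cells and 0.01 for 100 cells.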

How the data were processed

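The deposited counts are whole reads per gene, not normalized, made by the authors from RNA of 9 HAP1 libraries. Per the submitters' processing notes, reads were checked with FastQC 0.11.9, trimmed with Trim Galore 0.6.7, aligned to hg38 with HISAT2 2.2.1, sorted with SAMtools 1.16.1 and counted with featureCounts of Subread 2.0.6. The file headers show reverse-strand counting of reads rather than pairs. Multi-mapped reads were not counted. The annotation release is not given in the sources used here.

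The members and lists were chosen with earlier results of these data known. Genes kept by filterByExpr were compared in R 4.3.3 with edgeR 4.0.16 (TMM, quasi-likelihood test, Benjamini-Hochberg adjusted p under 0.05 over all genes), with a prior count of 2 for log2 CPM. DESeq2 1.42.0, other scalings and filters, a common fit, a block for the replicate number, and fits without each library in turn were alternatives. Means ± SD are over libraries. The code was tested on simulated data. Named were all members, *HMGN3-AS1*, *HMGB2*, *HMGA2*, the 3 genes nearest to *HMGN2* and to *PTMS*, and of each list the genes that passed a test or otherwise up to 4 of highest CPM. Promoters came from RefSeq (GRCh38), and shared stretches were exact matches on either strand in GENCODE 29.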

Additional observations from a re-analysis of the deposited data

How the results depend on the processing

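For single cells against 10, 100 and 1000 cells, 2 members were called. The count was 1 with DESeq2 size factors, without the filter on low counts and with at least 10 CPM in 2 libraries, and 0 in one fit of all 4 cell numbers. It was 3 with DESeq2 and with upper-quartile factors, 0 against 100 and 1000 cells only and against 1000 cells only (both chosen after seeing the data), and 0 to 5 when leaving out 1 library, with 0 without 100 Cell Rep 2, 1000 Cell Rep 1 or 1000 Cell Rep 2, and 5 without Single Cell Rep 2. Over all genes 1041 were called, 0 in the settings with 0 members, and 3188 without Single Cell Rep 2. Members without overlap numbered 2, and 2 to 7 when leaving out 1 library, with 7 without Single Cell Rep 2, where 32.6% of all genes did not overlap, against 15% with all libraries. The 7 include *HMGN2* and *PTMS*, which were chosen on their single-cell values. For 10 cells against 100 and 1000 cells the count was 0, with DESeq2 2 (271 genes of all) and when leaving out 1 library 0 to 1. For 100 against 1000 cells it was 0, without the filter 1, which was *PTMS*, and when leaving out 1 library 0 to 4, with 4 without 100 Cell Rep 2 (4951 genes of all). With the replicate number as a block, 2 members and 2077 genes of all were called in single cells. The members were *PTMA* (adjusted p = 0.0148 from edgeR) and *HMGN1* (0.0313), while *HMGN5* was not called (0.0642). The numbers did not pair the libraries, since the correlations between cell numbers of the difference between Rep 1 and Rep 2 were -0.025 to 0.0511 over 15603 genes. Leaving out 1 of 2 libraries assumes that the lone one varies like the others. Counts of PCR reads without molecular identifiers do not give the number of molecules behind a value, so the precision that depth gives is not known.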
